A study of Mus musculus with 4 samples.

Results

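A small set of Csf1r-positive cells in B16-F10 mouse melanomas carried messenger RNA of Cd300e, a myeloid surface receptor, or of Lipg, which encodes endothelial lipase, and is described here as the Cd300e/Lipg cells. Members were chosen by their raw UMIs of these genes. A cell was a member if it held at least 1 unique molecular identifier (UMI) of Csf1r, the receptor for colony stimulating factor 1, and at least 3 UMIs of Cd300e and Lipg together. Cells with 3 or more UMIs of Folr2 and Cbr2, 3 or more of Cd209d, Cd209f and Cd209g, 5 or more of Retnla and Ear2, more than 1 of the Cd3 genes, or 10 or more of Mlana and Dct were left out. The rule found 162 members among 8677 kept cells. The Adar1-null libraries S1 and S2 gave 21 and 68 of them, and the control libraries S3 and S4 gave 62 and 11. The 2274 cells that passed every other criterion but held fewer than 3 UMIs of Cd300e and Lipg are called the other Csf1r-positive cells, with 581, 507, 560 and 626 in S1 to S4.

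The study compared leukocytes from Adar1-null with those from control B16-F10 tumours, 2 libraries each. Adar1 is an enzyme that edits adenosine in double-stranded RNA. The labels give the null genotype to the implanted tumours. The host strain was C57BL/6 in both groups, so the myeloid cells described here are host cells. Host age and sex and the way of disrupting the gene were not given in the sources used here. In both groups the tumour line was placed with matrigel and tumours were collected on day 14. The tissue was digested for 10 min at 37 °C with an enzyme mix of collagenase P and DNase I, and CD45-positive cells were enriched by gradient and magnetic beads before 10x 3′ v2 single-cell sequencing. The labels do not say whether the libraries of 1 group are from different mice. All p-values here therefore speak only of the spread between libraries, which may be technical.

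Cd300e belongs to the CD300 receptor family of myeloid cells, whose members carry or pair with activating or inhibitory signalling chains, and it is known from blood monocytes. Monocytes that enter a tumour lose Ly6c2 and Ccr2 as they become macrophages, and gain complement C1q and lipid-handling genes. Pparg encodes a nuclear receptor that switches on genes of fatty acid uptake and storage in macrophages, and Lipg encodes a secreted phospholipase best known from endothelium. Pou2f2 encodes the octamer-binding factor Oct-2, and Slamf9 and Cd72 encode surface proteins of myeloid and B cells.

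The member libraries were uneven in size. Members held 238469 and 877353 UMIs in S1 and S2, against 862259 and 160365 in S3 and S4, and S4 rested on 11 cells. Members were also deeper than the other Csf1r-positive cells, with a median of 11982 against 7104.5 UMIs per cell. Among all 8838 barcodes, 38 sequences occurred in more than 1 library, and no member carried one. Scrublet, a doublet caller, scored 118 kept cells above 0.1, with no member and 7 other Csf1r-positive cells among them. Adar had 1 and 11 UMIs in the members of S1 and S2 and 10 and 0 in those of S3 and S4. These counts of 3′ ends in host cells check nothing about the deletion in the tumour line.

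Cd300e and Lipg chose the members, and Lipg was found almost only in members that also held Cd300e. Cd300e without Lipg was found in 109 members, both in 50, and Lipg alone in 3. The median member held 4 UMIs of Cd300e and 0 of Lipg, and the highest held 17 and 50. Just outside the threshold lay 77 cells with 2 UMIs of the pair, and just inside it 58 cells with 3. The members are therefore chiefly Cd300e-positive cells, with a Lipg-positive subset of 53 cells of which 6 and 31 were Adar1-null (S1, S2) and 15 and 1 control (S3, S4).

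Levels are given in CPM, the UMIs of a gene summed over the cells of a library and scaled to the same total for every library. Cd300e had 369 and 438 CPM in the members of S1 and S2 and 375 and 405 CPM in those of S3 and S4, against 15.7, 24.9, 19.5 and 6.36 CPM in the other Csf1r-positive cells. The rule asks for at least 3 UMIs of Cd300e and Lipg in each member, which can by itself narrow the range of Cd300e between libraries. Lipg had 126 and 333 CPM in the members of S1 and S2 and 99.7 and 6.24 CPM in those of S3 and S4, where S4 held a single UMI. Both genes are high by construction, and these values are a description with no test.

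The remaining markers, which the rule did not read, were also higher in members in all 4 libraries. Since they were measured in the cells that the rule selected, these differences too are a description. Slamf9 had 604 and 698 CPM in S1 and S2 members and 576 and 430.3 CPM in S3 and S4 members, against 125, 169, 140.5 and 73.3 CPM in the other cells. Cd72, a receptor that dampens B cell receptor signalling, had 671 and 585 CPM in S1 and S2 members and 627 and 355 CPM in S3 and S4 members, against 215, 221, 179.6 and 97.2 CPM. No member library overlapped a library of the other cells for either gene. Pparg had 122 and 169 CPM in S1 and S2 members and 136 and 168 CPM in S3 and S4 members, against 47.7, 54.0, 42.0 and 27.6 CPM. Pou2f2 had 373 and 315 CPM in S1 and S2 members and 305 and 405 CPM in S3 and S4 members, against 83.7, 98.5, 98.5 and 48.8 CPM. Here too the ranges were separate, and S4 was the lowest library in the other cells for all 4 genes.

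**Figure D1:**
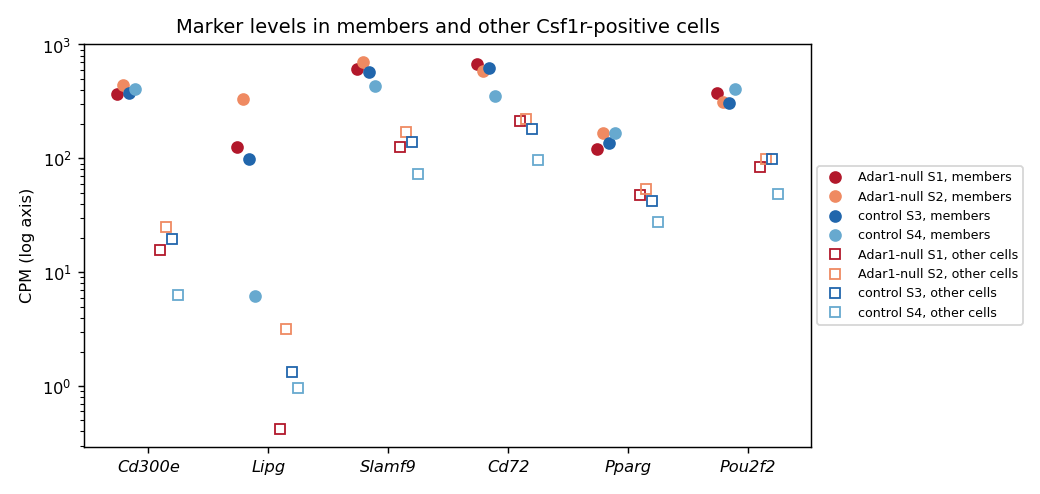
CPM (log axis) of the 6 marker genes per library, in members (filled circles, left) and other Csf1r-positive cells (open squares, right). Cd300e and Lipg are part of the rule; Cd300e lay between 369 and 438 CPM in members and Lipg between 6.24 and 333 CPM.

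To set detection against depth, each cell was thinned to 3961 UMIs, the lowest total of any kept cell. After thinning, Slamf9 was detected in 84.0% of members, 27.0% of other Csf1r-positive cells and 2.47% of T cells, which lack it and show the level of free RNA. Pou2f2 was detected in 72.2%, 23.8% and 6.59% of these 3 sets, and Pparg in 44.4%, 11.9% and 1.12%. Before thinning, Slamf9 was detected in 96.9%, 41.6% and 4.34%, Pou2f2 in 96.3%, 34.5% and 12.4%, and Pparg in 73.5%, 22.7% and 2.62%. The 1335 T cells had a median of 8718 UMIs. All 4 of Slamf9, Cd72, Pparg and Pou2f2 occurred together in 104 members (64.2%), against 6.38% of the other Csf1r-positive cells. The thinned shares were 26.5% and 1.36%.

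Across the 4329 kept Csf1r-positive cells, the genes whose log-scaled level followed Cd300e most closely were Slamf9 (Pearson r = 0.493), Sh2d1b1 (r = 0.414), Gk (r = 0.405), Cd72 (r = 0.400) and Pou2f2 (r = 0.399). Klra17, Sirpb1a, Pparg, Pycard and Clec4b1 came next, with r between 0.355 and 0.390. The cells share 4 libraries and differ in depth, so these values are a description.

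Because Cd300e, Slamf9 and Cd72 moved together across cells, the 250 bases before 1 RefSeq start of each are printed as promoter windows, from the gene's own strand on GRCm38.p6. Each window lies inside the full RefSeq span of its gene, so the start used is not the outermost one. The windows are chr11:115062040-115062289 on the minus strand for Cd300e, chr1:172475110-172475359 on the plus strand for Slamf9 and chr4:43454627-43454876 on the minus strand for Cd72. Capitals mark an exact match, on either strand, to the ETS-type motif GAGGAAGT, the class bound by the myeloid factor PU.1.

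Cd300e: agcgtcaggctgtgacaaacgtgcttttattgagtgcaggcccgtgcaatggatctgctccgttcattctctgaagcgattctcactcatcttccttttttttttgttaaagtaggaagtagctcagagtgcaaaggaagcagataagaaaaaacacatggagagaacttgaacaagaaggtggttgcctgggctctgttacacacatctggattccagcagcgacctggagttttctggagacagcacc
Slamf9: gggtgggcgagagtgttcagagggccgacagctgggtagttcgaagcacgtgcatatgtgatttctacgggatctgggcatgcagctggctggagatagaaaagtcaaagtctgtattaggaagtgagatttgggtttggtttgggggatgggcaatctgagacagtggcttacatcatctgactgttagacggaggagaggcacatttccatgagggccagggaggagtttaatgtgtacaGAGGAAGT
Cd72: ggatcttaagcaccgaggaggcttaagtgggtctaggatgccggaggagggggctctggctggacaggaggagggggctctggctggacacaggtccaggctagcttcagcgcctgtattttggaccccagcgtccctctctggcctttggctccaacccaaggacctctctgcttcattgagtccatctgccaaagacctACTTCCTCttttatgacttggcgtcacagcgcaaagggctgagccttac

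The Slamf9 match lies 8 to 1 bases before the start used here and the Cd72 match, on the opposite strand, 49 to 42 bases before that of Cd72. The Cd300e window holds none. Of 32851 promoters of this length, 2.44% hold GAGGAAGT. The octamer ATGCAAAT, known to be bound by Oct-2 (1.60% of promoters), the nuclear receptor core AGGTCA (14.0%) and the C/EBP site TTGCGCAA (0.164%) are in none of the 3 windows. A match is a match of letters only.

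The cells carried macrophage complement genes at high levels and classical monocyte genes at low levels. The median member held 181.5 UMIs of C1qa, C1qb and C1qc together, and 151 of 162 members held at least 30. C1qa, a chain of the complement component C1q, had 5560.5 and 4654 CPM in S1 and S2 members and 4947 and 5282 CPM in S3 and S4 members, against 3061, 2909.6, 3022 and 2714 CPM in the other cells. Ly6c2, the Ly6C antigen of classical monocytes, had 46.1 and 129 CPM in S1 and S2 members and 20.9 and 12.5 CPM in S3 and S4 members, against 313, 779.9, 219 and 97.7 CPM. Ly6c2 and Chil3 were both at 0 in 120 of 162 members, and 1 member held more than 9 UMIs of the pair. Of the 10 classical monocyte genes, 3 had at least 100 UMIs in members, and all 3 (Plac8, Ly6c2 and Ccr2) were lower in every library. Of all genes with this many UMIs, 14.2% were. A set of 1261 C1q-high cells was drawn from the other Csf1r-positive cells. They held at least 30 UMIs of C1qa, C1qb and C1qc together and at most 9 of Ly6c2 and Chil3. Their Ly6c2 was 63.3 (S1), 191 (S2), 57.5 (S3) and 21.5 CPM (S4), still above members in each library. Their C1qa was 4231 (S1), 4704 (S2), 4034 (S3) and 4102 CPM (S4), below members except in S2. High C1qa and low Ly6c2 in the C1q-high cells were set by their gate. Their closeness to members in these genes is therefore a description only.

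Nonclassical monocyte genes, the set with which Cd300e is often named in blood, were mixed. Of the 12 listed, 3 had at least 100 UMIs in members, with 1 (Fcgr4) higher and 2 lower in every library (median -0.35). Of all genes with this many UMIs, 34.6% were higher and 14.2% lower. Spn, Nr4a1, Ace and Cx3cr1 held fewer UMIs than this limit. Fcgr4, an activating receptor for IgG, had 1262 and 1557 CPM in S1 and S2 members and 1185 and 1172 CPM in S3 and S4 members, against 401, 714, 577 and 322 CPM in the other cells. Spn, the CD43 antigen, was also higher, at 50.3 and 41.0 CPM in S1 and S2 members and 27.8 and 74.8 CPM in S3 and S4 members, against 10.2, 10.9, 11.4 and 4.63 CPM. In contrast, Nr4a1, on which mouse nonclassical monocytes depend, had 21.0 and 29.6 CPM in S1 and S2 members and 42.9 and 12.5 CPM in S3 and S4 members, against 77.2, 121, 102 and 113 CPM. Ace had 1 UMI in all members together, and Cx3cr1 was between 3.42 and 24.9 CPM in members and between 9.54 and 20.4 CPM in the other cells. The label monocyte-derived names an origin that these levels do not show. The cells are therefore called by their rule genes.

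Many defining genes of other cell types were at 0 in members, and type 1 dendritic cell genes were not. The 6 genes of that list summed to 528 and 511 CPM in S1 and S2 members and 399 and 549 CPM in S3 and S4 members, against 216, 210.3, 250.2 and 130 CPM in the other Csf1r-positive cells. Both measured genes of the list were higher in every library, namely Cadm1 (median log2 1.37), an adhesion molecule, and Batf3 (1.13), a transcription factor. Of all genes with at least 100 UMIs in members, 34.6% were higher in every library. Xcr1, a chemokine receptor of these dendritic cells, held 73 UMIs in members and Clec9a held 3. Cd209a, Flt3 and Irf4 of type 2 dendritic cells had 0 UMIs in members, as did Siglech, Ccr9 and Klk1 of plasmacytoid dendritic cells. Siglecf, Car4, Ear1, Krt79 and Plet1 of alveolar macrophages and all 5 mast cell genes also had 0 UMIs. Some of these were near 0 in the other Csf1r-positive cells too, where their absence does not set members apart. There the mast cell genes summed to at most 0.424 CPM and Car4 had at most 0.193 CPM in any library. From the same lists Itgax, the integrin CD11c (0.85), was higher in every library, and Bst2, a membrane protein that interferon also induces, had 365 and 618 CPM in S1 and S2 members and 382 and 337 CPM in S3 and S4 members, against 552, 715, 478 and 307 CPM. Cd79a, Pax5 and Fcer2a of B cells were at 0 as well, although Cd79b, a chain of the B cell receptor, was higher in members and Cd72 is best known from B cells. Erythroid genes summed to 56.1 CPM in S4 members and to at most 1.16 CPM in the members of S1 to S3, and fibroblast genes to at most 33.6 CPM in any member library. In the other Csf1r-positive cells of S4, fibroblast genes summed to 452 CPM and erythroid genes to 222 CPM, against at most 42.2 and 2.29 CPM in S1 to S3, so S4 stood apart. Their part in the differences between libraries was not tested.

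Members differed widely from the other Csf1r-positive cells. Of 2739 genes with at least 100 UMIs in members, leaving out the genes of the rule, 949 (34.6%) were higher and 388 (14.2%) lower in all 4 libraries. This UMI limit was set on members alone, so a gene low in members could fail it while high in the other cells. The shares therefore do not weigh higher against lower genes evenly. With a limit of 1 on the median over libraries of log2((CPM members + 10)/(CPM other cells + 10)), 76 genes (2.77%) were higher and 53 (1.94%) lower. The 15 highest by this measure held surface receptors and signalling adaptors: Slamf9 (2.08), Cd79b (2.08), Sh2d1b1 (1.89), an adaptor of SLAM receptors, Siglece (1.88), an inhibitory sialic acid receptor, Klra17 (1.77), an Ly49-family receptor, and Clec4b1 (1.72), a C-type lectin. They also held Il10 (1.82), an anti-inflammatory cytokine, Pou2f2 (1.81), Gk (1.76), glycerol kinase, and Pycard (1.73), the inflammasome adaptor ASC. The other 5 were cell cycle genes, Top2a (1.90), Ube2c (1.86), Birc5 (1.76), Ccne1 (1.74) and 2810417H13Rik (1.73).

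Il10 had 54.5 and 82.1 CPM in S1 and S2 members and 49.9 and 68.6 CPM in S3 and S4 members, against 9.12, 10.6, 16.6 and 11.2 CPM in the other cells. Pycard had 2403 and 2798 CPM in S1 and S2 members and 1973 and 2369.6 CPM in S3 and S4 members, against 688, 867, 822 and 643 CPM. Cd79b had 54.5 and 114 CPM in S1 and S2 members and 69.6 and 106 CPM in S3 and S4 members, against 15.3, 16.4, 10.7 and 14.8 CPM. For each of these 3 genes the lowest member library lay above the highest library of the other cells.

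The 10 lowest among genes with at least 100 UMIs in members held secreted factors and the classical monocyte genes already described. Arg1, arginase 1, held 33 UMIs in members and so fell outside this limit, and it was lower still (-4.46). First among the 10 were Spp1 (-3.65), osteopontin, Ccl6 (-3.44), a chemokine, Il1b (-2.93), the cytokine interleukin 1 beta, and Cxcl2 (-2.76), a neutrophil chemokine. Fabp5 (-2.67), a fatty acid binding protein, Ly6c2 (-2.52), Lyz2 (-2.49), lysozyme, Plac8 (-2.48), Pf4 (-2.30), a platelet-type chemokine, and Ccr2 (-2.22), the receptor for Ccl2, followed. Ccl6 had 193 and 140.2 CPM in S1 and S2 members and 193 and 175 CPM in S3 and S4 members, against 1852, 1627, 2184 and 2532 CPM in the other cells. Spp1 had 54.5 and 86.6 CPM in S1 and S2 members and 23.2 and 12.5 CPM in S3 and S4 members, against 659, 180.4, 496 and 1194 CPM. Lyz2 had 1623 and 978 CPM in S1 and S2 members and 1552 and 873 CPM in S3 and S4 members, against 6947, 7349.8, 6015 and 6702 CPM.

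**Figure D2:**
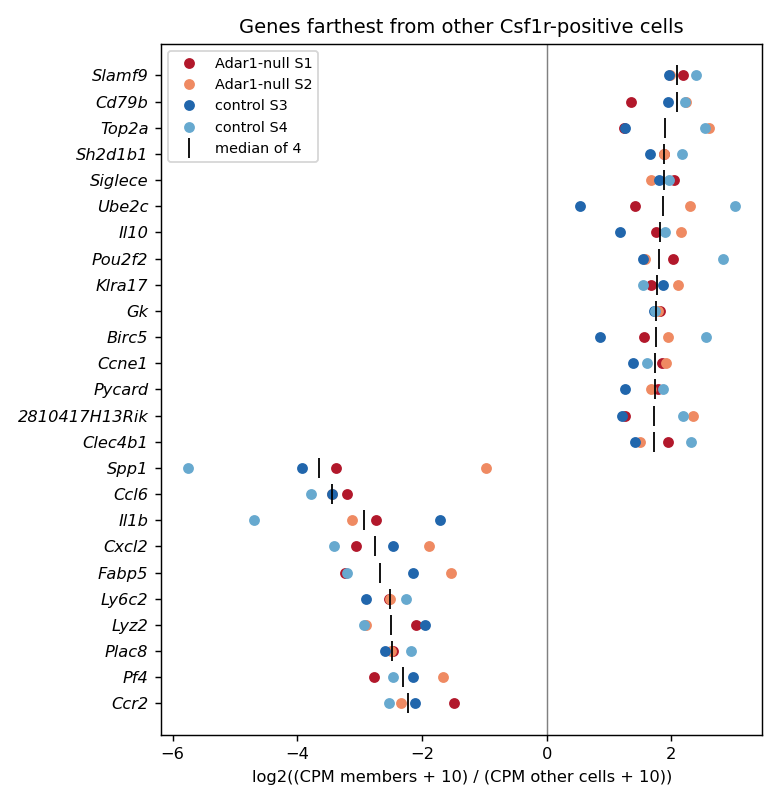
log2((CPM members + 10)/(CPM other Csf1r-positive cells + 10)) per library (points) and its median over 4 libraries (bar) for the 15 highest and 10 lowest genes with at least 100 UMIs in members. All points of a gene lie on 1 side of 0, which the selection required, and Spp1 ranges widest.

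Cell cycle genes were higher in members, and MHC class II genes lower. Of 18 cell cycle genes with enough UMIs, 17 were higher in every library (median 1.33). Summed over 20 genes, they had 2315 and 1711 CPM in S1 and S2 members and 1991 and 3798 CPM in S3 and S4 members, against 1002, 407, 999 and 757 CPM in the other cells. Among cells between 8981 and 15875.5 UMIs, the middle range of the members, the sums were 2366, 1529, 1718 and 3993 CPM in 80 members and 1222, 611, 938 and 1035 CPM in 599 other cells. Cells of similar depth thus differed in the same direction in every library. All 7 measured MHC class II genes were lower in every library (median -0.87), with H2-Ab1 at 2197 and 1671 CPM in S1 and S2 members and 2474 and 1241 CPM in S3 and S4 members, against 4232, 6046, 4905 and 2179 CPM. Of 14 measured MHC class I genes, 1 was higher and 4 lower in every library (median -0.08). Of 29 measured type I interferon-stimulated genes, 0 were higher and 10 lower in every library (median -0.38). Of all 2739 measured genes, 34.6% were higher and 14.2% lower in every library.

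**Figure D3:**
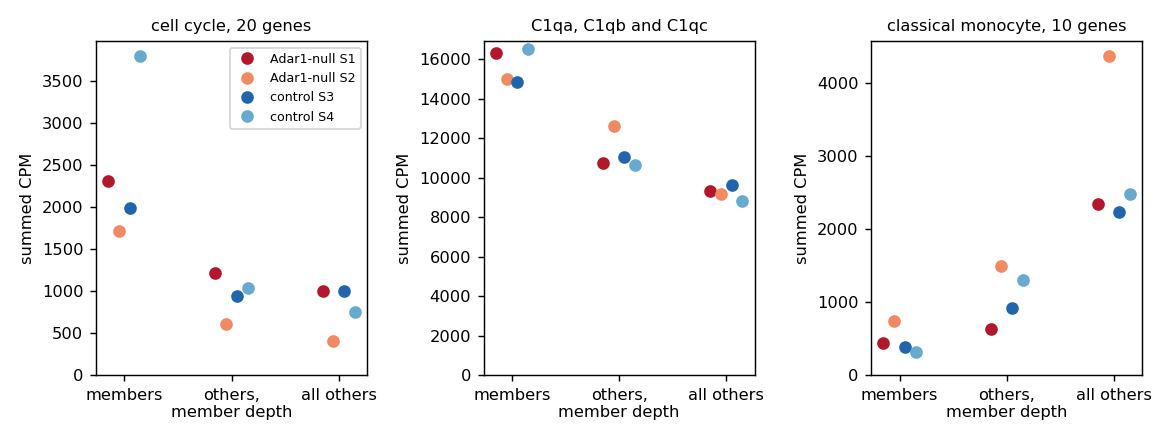
Summed CPM per library of 20 cell cycle genes, the 3 C1q genes and 10 classical monocyte genes in all members, in other Csf1r-positive cells of member depth and in all other Csf1r-positive cells. Member cell cycle sums (1711 to 3798 CPM) lie above those of depth-restricted other cells (611 to 1222 CPM).

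Relatives of the marker genes differed by family. Of all measured genes, those with at least 100 UMIs in members, 34.6% were higher and 14.2% lower in every library. Of 3 measured CD300 genes outside the rule, Cd300a (-0.54) and Cd300ld (-0.35) were lower in members in every library and Cd300lf (-0.06) differed in sign between libraries. Of 5 measured SLAM family genes 3 were higher, namely Slamf9, Cd48 (0.64) and Slamf7 (0.31), while Cd84 (-0.86) was lower and Slamf8 (-0.51) differed in sign. All 3 measured lipase genes outside the rule were higher: Lpl (0.89), lipoprotein lipase, Daglb (0.50), a diacylglycerol lipase, and Lipa (0.14), lysosomal acid lipase. Across 11 measured genes of Pparg and lipid handling, 3 were higher, namely Pparg, Nr1h3 (1.08), the liver X receptor alpha, and Lpl. Fabp5, Apoe (-1.78), apolipoprotein E, Hmox1 (-1.28), heme oxygenase, and Plin2 (-0.43), a lipid droplet coat protein, were lower. Cd36, a fatty acid transporter known as a target of Pparg, held under 100 UMIs in members. It had 37.7 and 35.3 CPM in S1 and S2 members and 31.3 and 0 CPM in S3 and S4 members, against 146, 77.9, 169 and 181 CPM. Among 15 measured transcription factors, 4 were higher (Pou2f2, Tcf7l2 at 1.46, Batf3 at 1.13 and Spi1, which encodes PU.1, at 0.37) and 9 lower, Irf8 (-0.38), a factor of monocyte and dendritic cell development, among them.

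Lipg-positive members carried the other markers too. In 53 Lipg-positive cells, Slamf9 had 726 CPM, Cd300e 456 CPM and Pparg 187 CPM, against 567, 377 and 132 CPM in the 109 cells without Lipg. Cd72 had 710.5 CPM in Lipg-positive and 539 CPM in Lipg-negative members, and Pou2f2 308 CPM in Lipg-positive and 332 CPM in Lipg-negative members. H2-Ab1 had 1245 CPM in Lipg-positive and 2389 CPM in Lipg-negative members, and 31 of the 53 Lipg-positive cells came from S2. The split was made on a rule gene, so it carries no test.

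The share of Cd300e/Lipg cells was compared between Adar1-null and control libraries. Members made up 1.06% (95% exact binomial interval 0.660 to 1.62%) of kept cells in S1 and 3.47% (2.71 to 4.38%) in S2, against 3.16% (2.43 to 4.03%) in S3 and 0.395% (0.197 to 0.705%) in S4. The groups overlapped, with the highest share in an Adar1-null library and the lowest in a control library. The means were 2.27 ± 1.70% in Adar1-null and 1.78 ± 1.96% in control libraries (SD, n = 2 each), a log2 ratio of 0.35 (two-sided exact permutation p = 0.667, with 0.333 the smallest that 2 against 2 libraries allow). As a share of gated Csf1r-positive cells, members made up 3.49% and 11.8% in S1 and S2, against 9.97% and 1.73% in S3 and S4. The means were 7.66 ± 5.90% and 5.85 ± 5.83% in Adar1-null and control libraries (log2 ratio 0.39, exact permutation p = 0.667). Without S2 the ratios were -0.74 and -0.75, and without S4 -0.48 and -0.38; without S3 they were 2.52 and 2.15 and without S1 0.97 and 1.02. Intervals cover counting error only, and shares describe the selected suspension.

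**Figure D4:**
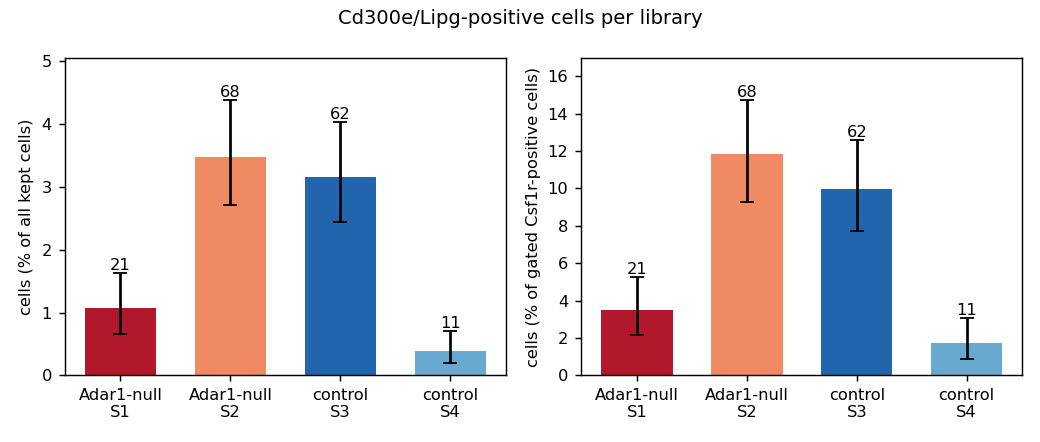
Cd300e/Lipg cells as a percentage of all kept cells (left) and of gated Csf1r-positive cells (right) per library, with exact 95% binomial intervals and the number of members above each bar. Shares within each group differ as much as shares between groups.

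In members, no gene passed the test between Adar1-null and control libraries. Summed UMIs per library were compared over 5445 genes with edgeR's quasi-likelihood test, Benjamini-Hochberg adjusted, and 0 were called higher and 0 lower (0% each). At an unadjusted p under 0.05 there were 97 genes (1.78%) higher and 91 (1.67%) lower, and DESeq2 called 0. In simulated data the edgeR fit recovered 7.69% of genes with a log2 change of 1, so the absence of calls does not exclude such changes. Leaving out S1, S2, S3 or S4 gave 37, 3, 59 and 33 called genes, and a fit without the low-count filter gave 23. The genes first by p are described next, and none of them is called with all 4 libraries and the low-count filter. Arg1, arginase 1, had 0 and 0 UMIs in S1 and S2 members and 29 and 4 in S3 and S4 members. Its adjusted p was 0.0688 by the quasi-likelihood test of edgeR, Benjamini-Hochberg adjusted, and 22 of the 29 UMIs in S3 came from 1 cell. With 2 UMIs of Cd300e and Lipg as the threshold its log2 change was -2.04 (adjusted p = 0.999 by edgeR).

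For other first-ranked genes, too, 1 cell held many of the UMIs of a library. Saa3, serum amyloid A3, had 0 and 1 UMIs in S1 and S2 members and 27 and 6 in S3 and S4 members (log2 change -4.87, adjusted p = 0.0688 by edgeR), with 22 of the 27 in 1 cell. Ly6c2 had 11 and 113 UMIs in S1 and S2 members and 18 and 2 in S3 and S4 members, with 62 of the 113 in 1 cell. Spp1 had 13 and 76 UMIs in S1 and S2 members and 20 and 2 in S3 and S4 members, with 27 of the 76 in 1 cell. Without the low-count filter Arg1, Saa3, Ly6c2 and Spp1 were called (adjusted p = 2.15e-05, 0.000244, 4.18e-06 and 0.00289 by edgeR), and all 4 were also called without S1 and without S4. Saa3 was also called at 2 UMIs of Cd300e and Lipg (adjusted p = 0.0258 by edgeR), and Spp1 without S3 (0.0377). When 6 cells, each the richest in 1 such gene or in Ifitm1, were left out, an alternative chosen after seeing the data, the count of called genes was still 0. The log2 changes of Ly6c2 and Spp1 were then 1.46 and 1.31, against 2.37 and 1.84 with all members. Ly6c2 was detected in 38 members and Spp1 in 24.

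Apoe was detected in 120 of 162 members, and 154 of its 375 UMIs in S4 came from 1 cell. It had 373 and 317 CPM in S1 and S2 members and 1003 and 2338 CPM in S3 and S4 members (log2 change -2.20 ± 0.40 SE, adjusted p = 0.964 by edgeR). It was called without the low-count filter (log2 change -2.15, adjusted p = 3.01e-17 by edgeR) and with any 1 library left out, where the log2 change lay between -2.68 and -1.58 and the adjusted p between 2.54e-25 and 1.82e-06. It was not called by DESeq2, and at 5 UMIs of Cd300e and Lipg it changed by -1.11 on the log2 scale (adjusted p = 0.999 by edgeR). Both Adar1-null libraries were below both control libraries, and S4 was highest in the other Csf1r-positive cells too, at 10348 CPM against 2542, 859.6 and 1981 CPM in S1 to S3. Mki67, the Ki-67 proliferation antigen, had 41.9 and 52.4 CPM in S1 and S2 members and 85.8 and 175 CPM in S3 and S4 members (log2 change -1.15, adjusted p = 0.964 by edgeR). Bcl2a1d, a survival factor, had 239 and 271 CPM in S1 and S2 members and 146 and 93.5 CPM in S3 and S4 members (adjusted p = 0.553 by edgeR). The log2 changes of Sphk2 (1.94), Ndufaf3 (1.22) and Asb2 (1.84) were positive and those of Tmem176a (-1.63), Emp1 (-1.88), Adam8 (-1.04), Gclm (-1.38) and Mt2 (-1.71) negative, and none was called. Gm26917, Gm10320 and Rpl9 also ranked among the first 10 higher genes. Overlapping or multi-copy loci may share their reads, and they are left as uncertain.

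Type I interferon-stimulated genes had higher averages in Adar1-null members, but the excess lay in S2. Of 41 measured genes of this list, 39 had a positive log2 change and 0 were called, with a median of 0.58 against 0.01 over all 5445 genes, of which 51.7% were positive. Isg15, a ubiquitin-like interferon product, had 151 and 569 CPM in S1 and S2 members and 222 and 99.8 CPM in S3 and S4 members, so the groups overlapped. Ifi27l2a had 654 and 911 CPM in S1 and S2 members and 536 and 337 CPM in S3 and S4 members (log2 change 0.82, adjusted p = 0.9997 by edgeR), and the groups did not overlap. Both Adar1-null libraries lay above both controls for 9 of the 41 genes, while 14.9% of all genes did. Each gene's mean over libraries set to 0, the list's median was -0.17 and 0.57 in Adar1-null members (S1, S2) and -0.02 and -0.29 in control members (S3, S4). Without S2, the median change was -0.09, over 31 genes of which 12 were positive. In the other Csf1r-positive cells all 49 measured genes were positive (48.4% of all genes were), with a median of 0.70, and both Adar1-null libraries lay above both controls for 23, against 15.7% of all genes. The list summed to 5158 and 8539 CPM (S1, S2) and 5556 and 4116 CPM (S3, S4) in members, against 7625 and 14127 CPM (S1, S2) and 7785 and 4389 CPM (S3, S4) in the other cells. In both sets of cells S2 was highest, S4 lowest and S1 below S3.

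**Figure D5:**
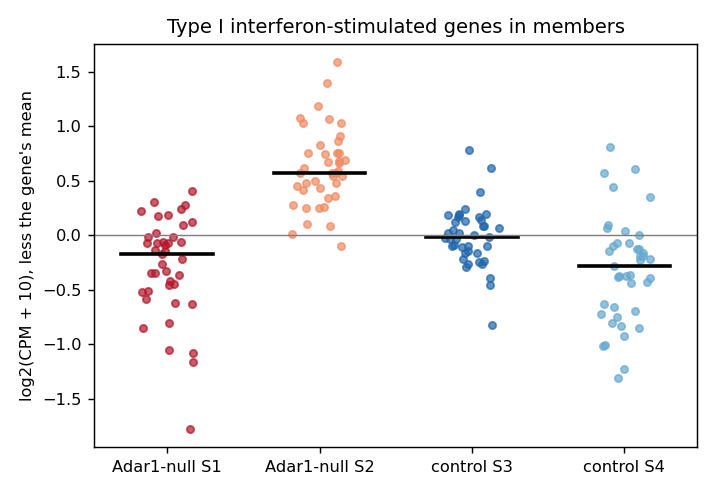
log2(CPM + 10) of 41 type I interferon-stimulated genes in members, with each gene's mean over the 4 libraries subtracted (points), and the median per library (bars). Only S2 lies clearly above 0, with a median of 0.57, and S1 lies at -0.17.

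Interferon-gamma-induced genes had a median of 0.58 in members (15 of 18 positive), but it was -0.19 without S2 and -0.16 at 5 UMIs of Cd300e and Lipg. MHC class I genes had a median of 0.27 (16 of 18 positive). Class II genes had a median of 0.05 (4 of 7 positive), which was -0.77 at 5 UMIs, 0.84 with 11 cells per library, -0.33 without S4 and 0.44 without S3. Of 14 measured chemokines 10 had a positive change, with a median of 0.31. Both Adar1-null libraries lay above both controls for 4 of the 14, against 14.9% of all genes. Ccl7 had 3959 and 3436 CPM in S1 and S2 members and 2381 and 567 CPM in S3 and S4 members, and Ccl12 1069 and 976 CPM against 509 and 112 CPM. Both are monocyte attractants and neither was called. The groups overlapped for Ccl8, at 2277 and 2139 CPM in S1 and S2 members and 2418 and 1391 CPM in S3 and S4 members, and for Ccl3, at 478 and 438 CPM against 572 and 461 CPM. Of 20 cell cycle genes, 5 were positive, with a median of -0.41, and in S4 members the list summed to 3798 CPM. Genes of Pparg and lipid handling were near 0 (median 0.07, 9 of 15 positive; -0.41 without S2 and 0.46 with 11 cells per library), with Pparg itself at 0.07 and Pou2f2 at 0.01.

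Whether the response of members differed from that of the other Csf1r-positive cells was tested with an interaction term and libraries as blocks. Over 9384 genes, Ero1l was called higher and Ifitm1 lower (0.0107% of genes each) by the quasi-likelihood test of edgeR, Benjamini-Hochberg adjusted. In simulated data this fit recovered 30.3% of genes with a log2 difference of 2. DESeq2 called 0. Ero1l, an oxidase of the endoplasmic reticulum that responds to hypoxia, had 83.9 and 67.2 CPM in S1 and S2 members and 46.4 and 31.2 CPM in S3 and S4 members, against 115 and 86.4 CPM (S1, S2) and 144 and 216 CPM (S3, S4) in the other cells. The difference in log2 change was 1.55 ± 0.35 SE (adjusted p = 0.0450 by edgeR), which ranged from 0.00193 to 1.0 in adjusted p over the alternatives. It was not called without S1, S2 or S4, without the low-count filter, or at 2 or 5 UMIs of Cd300e and Lipg. Ifitm1, an interferon-induced membrane protein, had 0 and 9.12 CPM in S1 and S2 members and 58.0 and 12.5 CPM in S3 and S4 members, against 40.5 and 155 CPM (S1, S2) and 126 and 142 CPM (S3, S4) in the other cells. The difference was -2.69 ± 0.53 SE (adjusted p = 0.00376 by edgeR), and 45 of the 50 UMIs in S3 members came from 1 cell. Without the 6 cells named above it was -0.03 (adjusted p = 1.0 by edgeR), and it was not called without S2 or S3, or at 2 or 5 UMIs of Cd300e and Lipg (-0.67 and -0.78, adjusted p = 1.0 each by edgeR). Leaving out S1, S2, S3 or S4 gave 9, 2, 26 and 19 called genes. Next by p, and not called, were Wfdc17, Mt1, Atp6v0d2, Cd36, Sphk2, Gpx3, Cxcl1, Klrd1 and Gzmc with a positive difference. Arg1, Oaf, Ifit3, Csf1, Tmem176a, Med13l, Rab3ip, Apobec3 and Gbp3 followed with a negative one. All 20 Oaf UMIs and all 21 Csf1 UMIs of S3 members came from 1 cell each.

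For comparison, 1 of 10043 genes was called in the other Csf1r-positive cells, lower in Adar1-null libraries (0.00996%). This was Marco, a scavenger receptor, at 2.12 and 0.795 CPM in Adar1-null libraries and 47.3 and 37.4 CPM in control libraries (log2 change -4.79 ± 0.35 SE, adjusted p = 0.0279 by edgeR). Marco had 0 UMIs in the members of S1, S2 and S4 and 13 in those of S3. DESeq2 also called 1 gene, and leaving out 1 library gave 0 calls without S1 or S2, 71 without S3 and 1 without S4.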

How the data were processed

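The authors deposited raw UMI counts of every cell of the 4 libraries as a single unnormalized matrix. The submitters' processing notes name Cell Ranger and Seurat 2.2.0, and mm10 as the build. Cell Ranger's version, the annotation and any filter on cells were not given in the sources used here. Barcode names show each library's group and no replicate number, so S1 to S4 pair nothing.

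Of 8838 barcodes, 8677 passed the limits of 500 detected genes and 10% mitochondrial UMIs and were kept, at medians of 8007, 7694, 8881 and 7890.5 UMIs per cell in S1 to S4. Scrublet (scanpy 1.11.5, expected rate 0.02) marked no member, and no cell was removed by it. No correction for free RNA was applied. UMIs were summed per library and cell set and tested with edgeR 4.0.16 (R 4.3.3): TMM, the default low-count filter, robust quasi-likelihood fits and a Benjamini-Hochberg threshold of 0.05, with DESeq2 1.42.0 as an alternative. The fits were checked on simulated data with the same spread for all genes. The fit of members recovered 7.69% of genes with a log2 change of 1 and 94.0% of those with 2. The fit of the difference in response recovered 0% and 30.3%. Small changes could thus go uncalled. The simulation held no genes concentrated in single cells, so larger changes could go uncalled too. In members, Arg1 (log2 change -7.09), Saa3 (-4.87) and Apoe (-2.20) were not called. Shares were compared by exact permutation over the 4 libraries. CPM scales the summed UMIs of a cell set to the same total, and log2 ratios between cell sets use a prior of 10 CPM.

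The members and the 36 gene lists were chosen with earlier results of these data known. Named genes are the 6 markers, the 15 highest and 10 lowest genes against the other Csf1r-positive cells with at least 100 UMIs and 1 sign in every library, in the comparisons of members the first 10 by p per direction, since fewer than 5 were called, the list examples and the 10 genes nearest to Cd300e. Some of these, Marco in members and several list genes, were named after their values were seen. The alternatives were size factors, no low-count filter, DESeq2, each library left out, 2 or 5 UMIs of Cd300e and Lipg, Scrublet-scored cells left out, thinned cells and 11 cells per library. Some genes that these rules select are not reported here. Promoters come from RefSeq, and all 3 symbols matched.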

Additional observations from a re-analysis of the deposited data

Results flagged for a closer look

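Between Adar1-null and control libraries, 2 genes changed differently in the Cd300e/Lipg cells than in the other Csf1r-positive cells, by the test of the difference itself. For Ero1l the log2 change in members less that in the other cells was 1.55, and for Ifitm1 it was -2.69. The Ifitm1 value was -0.03 without the 6 cells richest in single genes, and it was not called without S2, without S3 or at 2 or 5 UMIs of Cd300e and Lipg. The Ero1l value was 1.56 without those 6 cells (adjusted p = 0.0411 by the quasi-likelihood test of edgeR, Benjamini-Hochberg adjusted). Ero1l was not called by edgeR without S1 (adjusted p = 0.267), S2 (1.0) or S4 (0.165), without the low-count filter (0.0786), or at 2 or 5 UMIs (1.0 and 0.198), nor by DESeq2 (0.99998).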

How the results depend on the processing

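No paired analysis was possible because the library names carry no replicate number. The log2 ratio of member shares of kept cells ranged from -0.74 to 2.52 when 1 library was left out, and that of shares of Csf1r-positive cells from -0.75 to 2.15, turning negative without S2 and without S4. In members the count of called genes was 0 with TMM and 23 without the low-count filter, 2 and 1 at 2 and 5 UMIs of Cd300e and Lipg, and 11 with 11 cells per library. It ranged from 3 to 59 with 1 library left out (37, 3, 59 and 33 without S1 to S4), where the lone library of a group is assumed to vary like the other group. In the other Csf1r-positive cells it was 1, 10 without the filter, and 0 to 71 with 1 library left out. For the difference in response it was 2, 1 without the filter, 0 by DESeq2, 0 at 2 UMIs, 9 at 5 UMIs, and 2 to 26 with 1 library left out (9, 2, 26 and 19 without S1 to S4). At 5 UMIs the sign turned for Ly6a in members (-0.38) and for the difference in Cxcl1 (-0.38), Oaf (0.44) and Csf1 (0.98), and the median of interferon-gamma-induced genes in members was then -0.16 and that of MHC class II genes -0.77. With 1 library left out the difference ranged from -9.74 to 1.22 for Csf1 and from -2.51 to 9.08 for Gzmc. The causes were not tested. The comparison of libraries with at least 50 members was not run, since it leaves 1 library per group. The 11 members of S4 limit the depth of every comparison.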

Other observations

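Formyl peptide receptors, which sense bacterial and mitochondrial peptides, were higher in the Cd300e/Lipg cells in all 4 libraries. Fpr2 had 138 and 146 CPM in S1 and S2 members and 107 and 112 CPM in S3 and S4 members, against 25.9, 45.6, 29.4 and 24.7 CPM in the other Csf1r-positive cells. Fpr1 had 41.9 and 59.3 CPM in S1 and S2 members and 26.7 and 12.5 CPM in S3 and S4 members, against 10.4, 15.9, 6.68 and 6.75 CPM. The inhibitory IgG receptor Fcgr2b was lower, at 159 and 150.5 CPM in S1 and S2 members and 154 and 106 CPM in S3 and S4 members, against 415, 487, 371 and 481 CPM. Of 14 measured dissociation and immediate-early genes, 11 were lower in members in every library and 1 higher (median -0.75). Of all measured genes, 14.2% were lower and 34.6% higher in every library. The genes of this paragraph were named after their values were seen, and the values carry no test.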
